A study of Homo sapiens with 8 samples.

Results

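The p53 target genes described here are 35 genes that the transcription factor p53 is known to switch on, taken by symbol from a table of RNA counts per gene; 35 of 35 were found among the 57736 gene IDs of the table. RNA came from RMG1, an established line of ovarian clear cell carcinoma, in 4 groups of 2 libraries each. The first group was RMG1 with intact ARID1A and CAPH2 (wild type), and the second was RMG1 with ARID1A knocked out by CRISPR and CAPH2 intact (knockout). The third carried a control shRNA, with ARID1A and CAPH2 intact (shControl), and the fourth carried an shRNA against CAPH2 with ARID1A intact (knockdown). ARID1A belongs to SWI/SNF, a complex that remodels chromatin, and CAPH2, the product of the gene NCAPH2, is a subunit of condensin II. The study asked what both proteins do to chromosome organisation, and no group was labelled as treated with a DNA-damaging agent. Whether the knockout cells were 1 clone or a pool, and how shRNA cells were selected, is not given in the sources used here.

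In unstressed cells p53 is kept scarce by MDM2, a ubiquitin ligase that p53 itself induces. DNA damage or other stress stabilises p53, which then raises genes that stop the cell cycle, repair DNA, adjust metabolism or prepare the cell to die, together with genes that feed back on p53. The p21 protein made from CDKN1A lowers many cell cycle genes through the DREAM repressor complex, so that induction of some genes and repression of others are both known parts of the response. ARID1A is often lost in ovarian clear cell carcinoma.

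Of the 35 genes, 34 had enough counts to be tested. PGF, which encodes placental growth factor, lay between 0 and 0.226 CPM (counts scaled to the size of the library, with trimmed means) and was not tested. A gene was called where its Benjamini-Hochberg adjusted p from edgeR's quasi-likelihood test, over all 16657 genes tested, was under 0.05. Each fold change is on the log2 scale and carries the standard error (SE) that the fit gave it. The members moved in both directions after either perturbation. The most one-sided difference lay between the 2 groups with intact ARID1A and CAPH2. There 16 of the 19 called members were lower in shControl than in wild type. Over all genes tested, 10.1% were called lower and 9.13% higher there. CDKN1A, KITLG, GDF15, PLK2, GADD45A, FUCA1 and TNFRSF10B moved one way in the knockout and the opposite way in the knockdown. They were 7 of the 8 members called in both, and 46.8% of all genes called in both moved in opposite directions. The knockdown calls of CDKN1A, KITLG and PLK2 were lost on leaving out single libraries, as was the knockout call of CDKN1A. In the knockout FUCA1 (-0.74) and CDKN1A (-0.26) fell by little more than the median of the 40 tested genes nearest to each (-0.73 and -0.21).

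Total counts per library lay between 24559547 and 37378691. ARID1A stood at 8.80 and 12.1 CPM in wild type and at 6.66 and 5.61 CPM in the knockout, a fold change of -0.77 (SE 0.16, adjusted p = 0.00274); an edited gene can still be transcribed, so this is a partial check of the label. NCAPH2 stood at 24.0 and 25.8 CPM in shControl and at 8.98 and 8.73 CPM in the knockdown, a fold change of -1.49 (SE 0.10, adjusted p = 1.84e-06), and it was also lower in the knockout than in wild type, with a fold change of -0.34 (SE 0.09, adjusted p = 0.0144). The call for NCAPH2 in the knockout was lost without wild-type library 2 (-0.26, adjusted p = 0.0961) and without knockout library 1 (-0.25, adjusted p = 0.133). Chi-square per degree of freedom between the libraries of a group was 19.9 for wild type, 14.4 for the knockdown, 5.35 for the knockout and 4.31 for shControl, so the wild-type pair differed most. The summed level of 7 epithelial and Mullerian markers lay between 2935 and 3387 CPM, but its members moved in both directions: in the knockout 2 were called higher (CDH1 and EPCAM) and 3 lower (KRT8, KRT19 and NAPSA). CDH1, which encodes E-cadherin, gave 0.96 (SE 0.05, adjusted p = 7.93e-08) there, and KRT8, a keratin, gave -0.70 (SE 0.05, adjusted p = 1.06e-06). The 6 fibroblast markers summed to 0.284 to 1.12 CPM, with 6 of 6 under 1 CPM and 2 at 0 in every library. The 6 leukocyte markers summed to 0.247 to 0.434 CPM in wild type and shControl, 0.756 to 1.26 CPM in the knockdown and 2.27 to 2.82 CPM in the knockout, with 5 of 6 under 1 CPM and 2 at 0. Their part in the results was not tested. The 3 matched endothelial markers (PECAM1 was not matched) summed to at most 0.124 CPM.

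Promoter sequence is shown for the members whose start site region held a match to the p53 half-site, the 10-letter motif of which a pair makes up a p53 response element, and for the members with a TATA box, since these are sequences a reader may want beside the values. Sequences are from RefSeq on GRCh38.p14, a later build than the hg19 of the counts. Of the 35 members 27 had an entry, in 40 windows of 250 bases upstream of an annotated start. The half-site was found on either strand in 5 of the 40 member windows (12.5%) and in 5.59% of all 34788 windows. The genes were PLK2, SESN1, FAS, AEN and FDXR, shown here in 30-base windows, 5′ to 3′ on the gene's own strand, with the half-site in capitals.
PLK2: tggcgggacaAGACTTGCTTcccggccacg
SESN1: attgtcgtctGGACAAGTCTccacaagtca
FAS: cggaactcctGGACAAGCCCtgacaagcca
AEN: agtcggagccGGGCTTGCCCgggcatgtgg
FDXR: ggcgggcccgggcaggagcGGGCTTGCCCt

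The PLK2 window is chr5:58460199-58460228 on the minus strand, and its half-site lies 132 to 123 bases before the start. The SESN1 window is chr6:109009018-109009047 on the minus strand, with the half-site 49 to 40 bases before the start. The FAS window is chr10:88991299-88991328 on the plus strand, with the half-site 122 to 113 bases before the start. SESN1 and FAS each have 3 annotated starts among the windows, and the distance is to the start of the 1 window that holds the match; the match lies downstream of the other two starts of each gene. The AEN window is chr15:88621296-88621325 on the plus strand, with the half-site 34 to 25 bases before the start. The FDXR window is chr17:74872995-74873024 on the minus strand, with the half-site 11 to 2 bases before the start. The letters TATAAA were found on either strand in 2 of the 40 member windows (5%), those of KITLG and GDF15, and in 10.8% of all windows. A match anywhere in the 250 bases was counted, so the 10.8% is not a share of TATA boxes. Both member matches lie on the gene's own strand. A link between these letters and the fold changes was not tested.
KITLG: gggcgggaactgTATAAAagcgccggcggc
GDF15: aagtccggggacTATAAAggccggtccggc

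In both, the capitals (TATAAA) lie 29 to 24 bases before the start. The KITLG window is chr12:88580483-88580512 on the minus strand and the GDF15 window is chr19:18386117-18386146 on the plus strand. The letters GGGCGG, a binding motif of SP1-type factors, were found on either strand in 34 of the 40 member windows (85%) and in 42.6% of all windows. The 3 motifs were searched on their own, so that matches may overlap. A match is a description of the letters, and many p53 response elements lie in introns or farther upstream, outside these windows.

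Set per kilobase of exon (GENCODE 29), the level averaged over the 8 libraries was highest for FUCA1 at 209 CPM per kb and CCNG1 at 102 CPM per kb, followed by GADD45A at 30.4 CPM per kb. At the other end stood ZMAT3 at 0.814, SPATA18 at 0.746 and PGF at 0.0190 CPM per kb. CDKN1A, at 12.2 CPM per kb, lay between RRM2B at 12.5 and TNFRSF10B at 10.7 CPM per kb. The 35 members together summed to 2134 and 2190 CPM in wild type, 2038 and 2067 in the knockout, 1778 and 1815 in shControl and 2015 and 2006 in the knockdown. The sum was lowest in both shControl libraries, but the median level of the members was lowest in both knockdown libraries. That median was 31.7 and 36.7 CPM in wild type and 30.7 and 31.6 in the knockout. It was 24.4 and 24.8 CPM in shControl and 20.95 and 19.9 in the knockdown. Within the sum, FUCA1 alone stood at 374 and 394 CPM in shControl and at 559 and 556 CPM in the knockdown. Of the 35 members 22 share no exon base with another gene; for the other 13 (among them FAS with ACTA2, MDM2 with the carboxypeptidase M gene, XPC with LSM3 and TNFRSF10B with RHOBTB2) reads cannot be assigned by strand, because the strand setting of the counting is not given in the sources used here.

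In the knockout against wild type, 16 of 34 members were called (47.1%), 8 higher and 8 lower, where 34.5% of all genes tested were called (16.8% higher and 17.8% lower). The median fold change of the members was 0.03, and that of all genes tested was 0.00. In the knockdown against shControl, 14 of 34 were called (41.2%), 6 higher and 8 lower, where 15.8% of all genes were called (7.62% higher and 8.22% lower), and the median was 0.00. In shControl against wild type, 19 of 34 were called (55.9%), 3 higher and 16 lower, where 19.2% of all genes were called (9.13% higher and 10.1% lower). There the median of the members was -0.26 and that of all genes tested was 0.00. Without regard to sign, the median fold change in the knockout was 0.25 for the members and 0.31 for all genes tested. It was 0.22 and 0.21 in the knockdown, and 0.34 and 0.23 between the controls. The wild-type and shControl libraries enter more than 1 of these comparisons, so their results are not independent. Of the 34 members 28 were called in at least 1 of the 3 comparisons (82.4%), where 47.6% of all genes tested were. In bulk RNA, a lower level in every cell and fewer cells with the transcript cannot be told apart.

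Leaving out 1 library moved the count of called members in the knockdown from 14 to 6 without shControl library 1, 7 without shControl library 2, and 9 and 7 when knockdown library 1 or 2 was left out. For shControl against wild type the count moved from 19 to 12 without shControl library 1, and it was 13 without shControl library 2, 15 without wild-type library 2 and 20 without wild-type library 1. For the knockout the count was also lower without any 1 library. Calls over all genes tested fell as well, in the knockdown and in the knockout, whichever library was left out. Between the controls they fell without any 1 library other than wild-type library 1.

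**Figure D1:**
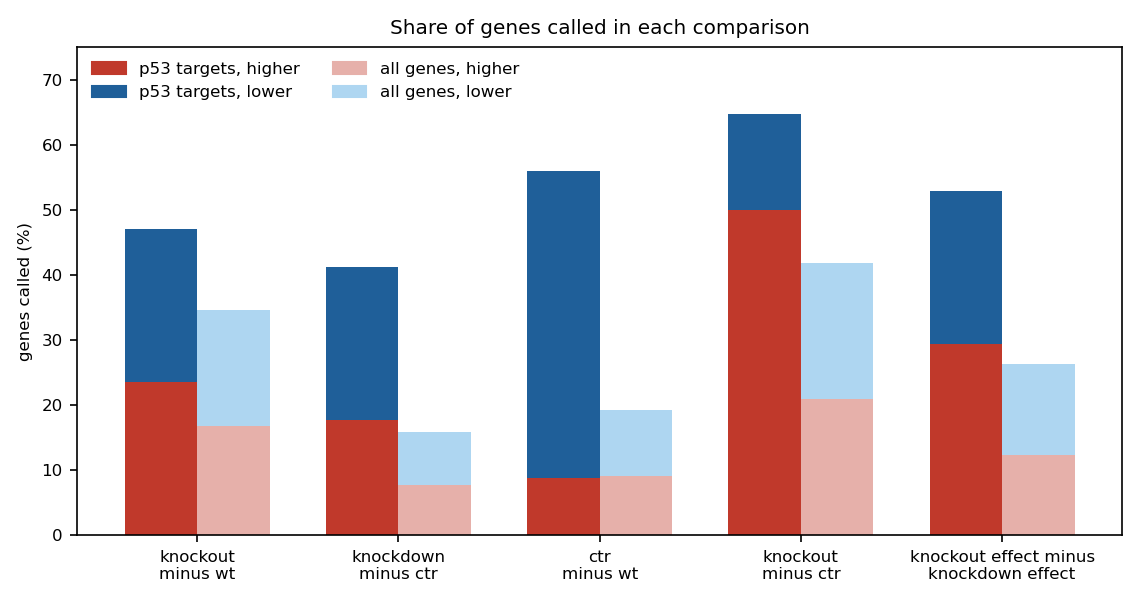
Share of genes called (%, y axis) in each comparison (x axis), for the 34 p53 target genes tested (dark bars) and all 16657 genes tested (pale bars), split into higher and lower. The dark bar for shControl minus wild type is mostly lower (16 of 19 called), and the dark bar for knockout minus shControl is mostly higher (17 of 22 called).

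Among the 7 genes of cell cycle arrest and growth control, 5 were called in the knockout (1 higher, 4 lower). In the knockdown 5 were called (4 higher, 1 lower) and in shControl against wild type 4 (1 higher, 3 lower). As shares these are 71.4%, 71.4% and 57.1%, beside 34.5%, 15.8% and 19.2% of all genes tested. CDKN1A, which encodes the cyclin-dependent kinase inhibitor p21, stood at 44.5 and 53.5 CPM in wild type, 41.7 and 40.3 in the knockout, 25.9 and 26.7 in shControl and 33.1 and 31.9 in the knockdown. Both wild-type libraries lay above all others and both shControl libraries below all others, with no overlap between groups. The fold change was -0.26 (SE 0.08, adjusted p = 0.0333) in the knockout against wild type, 0.30 (SE 0.09, adjusted p = 0.0354) in the knockdown against shControl and -0.90 (SE 0.09, adjusted p = 4.69e-05) in shControl against wild type. Against shControl the knockout was higher, by 0.64 (SE 0.09, adjusted p = 0.000104); this shares the knockout libraries with the first comparison. The level of CDKN1A in the knockout thus lay below one control and above the other. The 40 genes tested nearest to CDKN1A had a median of -0.21 in the knockout against wild type, which leaves -0.05 for CDKN1A relative to them, and 0.04 in the knockdown, which leaves 0.27. Its call in the knockout against wild type was lost without wild-type library 2 (-0.12), knockout library 1 (-0.28) or knockout library 2 (-0.23), in DESeq2 (-0.25, adjusted p = 0.0548) and in a fit of only the groups compared (-0.26, adjusted p = 0.0644). The call in the knockdown was lost without shControl library 1 (0.28), shControl library 2 (0.33), knockdown library 1 (0.27) or knockdown library 2 (0.33).

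GADD45A, a stress sensor that slows growth after DNA damage, stood at 47.0 and 49.4 CPM in wild type, 32.7 and 31.6 in the knockout, 74.6 and 68.7 in shControl and 100.2 and 98.2 in the knockdown. The 4 groups were in separate ranges, lowest in the knockout and highest in the knockdown. Its fold change was -0.58 (SE 0.06, adjusted p = 3.20e-05) in the knockout, 0.47 (SE 0.06, adjusted p = 0.000275) in the knockdown and 0.57 (SE 0.06, adjusted p = 0.000128) in shControl against wild type. PLK2, a polo-like kinase induced by stress, stood at 55.7 and 66.3 CPM in wild type, 117 and 109.6 in the knockout, 49.8 and 45.1 in shControl and 35.7 and 34.8 in the knockdown. It was highest in both knockout libraries and lowest in both knockdown libraries. Its fold change was 0.89 (SE 0.08, adjusted p = 7.46e-06) in the knockout, -0.43 (SE 0.09, adjusted p = 0.00544) in the knockdown and -0.36 (SE 0.08, adjusted p = 0.0115) in shControl against wild type. The PLK2 call in the knockdown was lost without shControl library 1 (-0.36) and without knockdown library 2 (-0.41), and that between the controls without wild-type library 2 (-0.23) and without shControl library 2 (-0.29). Its neighbours had a median of -0.20 between the controls, which leaves -0.17 for PLK2.

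PLK3, a related kinase, was low, at 7.19 and 6.12 CPM in wild type, 4.79 and 3.97 in the knockout, 4.49 and 4.38 in shControl and 3.72 and 5.19 in the knockdown. Both wild-type libraries were above the other 6. PLK3 fell by 0.60 in the knockout (SE 0.19, adjusted p = 0.0319), and the call was lost without wild-type library 1 (-0.49), without knockout library 2 (-0.47) and in DESeq2 (-0.60, adjusted p = 0.0555); shControl against wild type gave -0.58 (SE 0.19, adjusted p = 0.0577), which did not pass. SERTAD1, a cofactor of E2F-driven transcription, stood at 6.77 and 10.8 CPM in wild type, 7.70 and 7.07 in the knockout, 7.92 and 8.21 in shControl and 14.2 and 11.7 in the knockdown. The knockdown libraries were the highest, and the wild-type libraries spread across the knockout and shControl levels. It rose in the knockdown by 0.68 (SE 0.18, adjusted p = 0.0268), a call lost without shControl library 1 (0.66), shControl library 2 (0.71) or knockdown library 1 (0.53). CCNG1, which encodes cyclin G1, fell in the knockout, with a fold change of -0.38 (SE 0.06, adjusted p = 0.000275), and was lower in shControl than in wild type, with a fold change of -0.24 (SE 0.06, adjusted p = 0.0106), the second call being lost without shControl library 1 (-0.23) or shControl library 2 (-0.26). BTG2, an antiproliferative cofactor of mRNA deadenylation, rose in the knockdown by 0.43 (SE 0.13, adjusted p = 0.0477); the call was lost without shControl library 1 (0.46), shControl library 2 (0.40) or knockdown library 2 (0.28), with DESeq2 (0.43, adjusted p = 0.125), with no filter on low counts (0.43, adjusted p = 0.0587) and with only the groups compared (0.43, adjusted p = 0.051).

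Of the 4 genes that feed back on p53, 1 was called in the knockout, 0 in the knockdown and 2 between the controls. The shares called among all genes tested were 34.5%, 15.8% and 19.2%. MDM2, the ubiquitin ligase of p53, stood at 322 and 312 CPM in wild type, 280.3 and 296 in the knockout, 233 and 252 in shControl and 259.7 and 272 in the knockdown. Its libraries did not overlap between groups, and the order from high to low was wild type, knockout, knockdown and shControl. MDM2 gave -0.14 (SE 0.06, adjusted p = 0.087) in the knockout and 0.13 (SE 0.06, adjusted p = 0.162) in the knockdown, neither of which passed, with 95% intervals of -0.27 to -0.01 and 0.00 to 0.26. It was lower in shControl than in wild type, with a fold change of -0.39 (SE 0.06, adjusted p = 0.000952). ZMAT3, a zinc finger RNA-binding protein, stood at 8.55 and 10.4 CPM in wild type, 9.75 and 11.3 in the knockout, 4.67 and 5.69 in shControl and 5.48 and 6.93 in the knockdown. Its levels in wild type and the knockout overlapped, and all 4 shRNA libraries were below them. ZMAT3 was lower in shControl than in wild type, with a fold change of -0.87 (SE 0.17, adjusted p = 0.00462), a call lost without shControl library 1 (-0.74, adjusted p = 0.0529). FBXO22, an F-box protein of a ubiquitin ligase that acts on p53, rose in the knockout by 0.32 (SE 0.07, adjusted p = 0.00403). PPM1D, which encodes the phosphatase WIP1 that dampens p53 signalling, was not called in any of the 3 comparisons, with intervals of -0.23 to 0.10 in the knockout and -0.23 to 0.11 in the knockdown.

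Of the 4 death receptor genes, 2 were called higher in the knockout and 0 lower, and 2 were called lower in the knockdown and 0 higher. Between the controls 3 were called lower in shControl. Over all genes tested, 34.5%, 15.8% and 19.2% were called in these 3 comparisons. FAS, the receptor of FAS ligand, stood at 18.2 and 22.9 CPM in wild type, 22.2 and 21.4 in the knockout, 9.40 and 9.74 in shControl and 6.99 and 6.54 in the knockdown. Wild type and knockout overlapped, shControl was below both, and the knockdown was lower again. The fold change of FAS was -1.11 (SE 0.12, adjusted p = 9.57e-05) in shControl against wild type and -0.50 (SE 0.13, adjusted p = 0.0199) in the knockdown, and 0.08 (SE 0.11, adjusted p = 0.617) in the knockout, where it was not called. The median of the 40 genes tested nearest to FAS on the chromosome was -0.47 in the knockout against wild type and -0.16 in shControl against wild type. The FAS call in the knockdown was lost without shControl library 1 (-0.53), shControl library 2 (-0.47), knockdown library 1 (-0.56) or knockdown library 2 (-0.45).

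TNFRSF10B, a receptor of the death ligand TRAIL, stood at 58.0 and 62.7 CPM in wild type, 75.8 and 74.5 in the knockout, 50.9 and 49.6 in shControl and 37.02 and 33.9 in the knockdown. The groups were in separate ranges, highest in the knockout and lowest in the knockdown. Its fold change was 0.32 (SE 0.07, adjusted p = 0.0029) in the knockout, -0.50 (SE 0.07, adjusted p = 0.000358) in the knockdown and -0.26 (SE 0.07, adjusted p = 0.0171) in shControl against wild type, the last being lost without wild-type library 2 (-0.20), shControl library 1 (-0.28) or shControl library 2 (-0.24). TNFRSF10A, the other TRAIL receptor of this kind, rose in the knockout by 0.39 (SE 0.08, adjusted p = 0.00238), while the knockdown gave -0.00 (SE 0.08, adjusted p = 0.99) with an interval of -0.17 to 0.17. EDA2R, a receptor of ectodysplasin, stood at 8.72 and 6.80 CPM in wild type, 8.90 and 9.21 in the knockout, 4.67 and 4.24 in shControl and 3.81 and 3.54 in the knockdown. All 4 shRNA libraries were below the wild-type and knockout libraries. EDA2R was lower in shControl than in wild type, with a fold change of -0.80 (SE 0.16, adjusted p = 0.00527), a call lost without shControl library 2 (-0.73, adjusted p = 0.0518).

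Among the 6 genes of cell death, survival and autophagy, 2 were lower in the knockout and 1 was lower in the knockdown. Between the controls 1 was higher and 2 were lower. Shares of 33.3%, 16.7% and 50.0% were called, beside 34.5%, 15.8% and 19.2% of all genes tested. DRAM1, a lysosomal membrane protein needed for p53-induced autophagy, stood at 41.6 and 42.0 CPM in wild type, 42.8 and 46.7 in the knockout, 54.4 and 48.4 in shControl and 30.6 and 28.9 in the knockdown. Both knockdown libraries were below all others. DRAM1 fell in the knockdown, with a fold change of -0.79 (SE 0.08, adjusted p = 3.38e-05), and was higher in shControl than in wild type by 0.30 (SE 0.08, adjusted p = 0.0185), and the second call was lost without shControl library 1 (0.21, adjusted p = 0.185). Relative to its neighbours, whose median between the controls was -0.18, DRAM1 was higher by 0.48. SPATA18, which acts in mitochondrial quality control, stood at 5.41 and 5.25 CPM in wild type, 2.77 and 2.48 in the knockout, 3.62 and 3.24 in shControl and 3.06 and 3.67 in the knockdown. Both wild-type libraries were above the other 6, and the knockout was lowest. SPATA18 fell in the knockout, with a fold change of -1.02 (SE 0.19, adjusted p = 0.00136), and was lower in shControl, with a fold change of -0.64 (SE 0.18, adjusted p = 0.0334); the second call was lost in DESeq2 (-0.64, adjusted p = 0.0892) and without wild-type library 1 (-0.62), wild-type library 2 (-0.66), shControl library 1 (-0.72) or shControl library 2 (-0.56).

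AEN, an apoptosis-enhancing nuclease, stood at 38.5 and 36.7 CPM in wild type, 33.5 and 32.7 in the knockout, 24.4 and 24.9 in shControl and 21.7 and 22.4 in the knockdown. The groups did not overlap and fell in the order wild type, knockout, shControl and knockdown. AEN was lower in shControl than in wild type, with a fold change of -0.61 (SE 0.07, adjusted p = 0.000149), and neither the knockout (-0.18, adjusted p = 0.0556) nor the knockdown (-0.16, adjusted p = 0.16) passed. PHLDA3, an inhibitor of AKT signalling, gave -0.35 (SE 0.12, adjusted p = 0.0486) in the knockout, just inside the threshold. That call was lost on leaving out wild-type library 2 (-0.26) or knockout library 2 (-0.23), under upper-quartile scaling (-0.33, adjusted p = 0.0618), in DESeq2 (-0.35, adjusted p = 0.11) and with only the groups compared (-0.36, adjusted p = 0.0777). TP53INP1, which promotes autophagy and cell death, and TRIAP1, an inhibitor of apoptosis, were not called in any of the 3 comparisons. Their intervals in the knockout were -0.31 to 0.47 and -0.17 to 0.20, and in the knockdown -0.18 to 0.56 and -0.19 to 0.18.

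**Figure D2:**
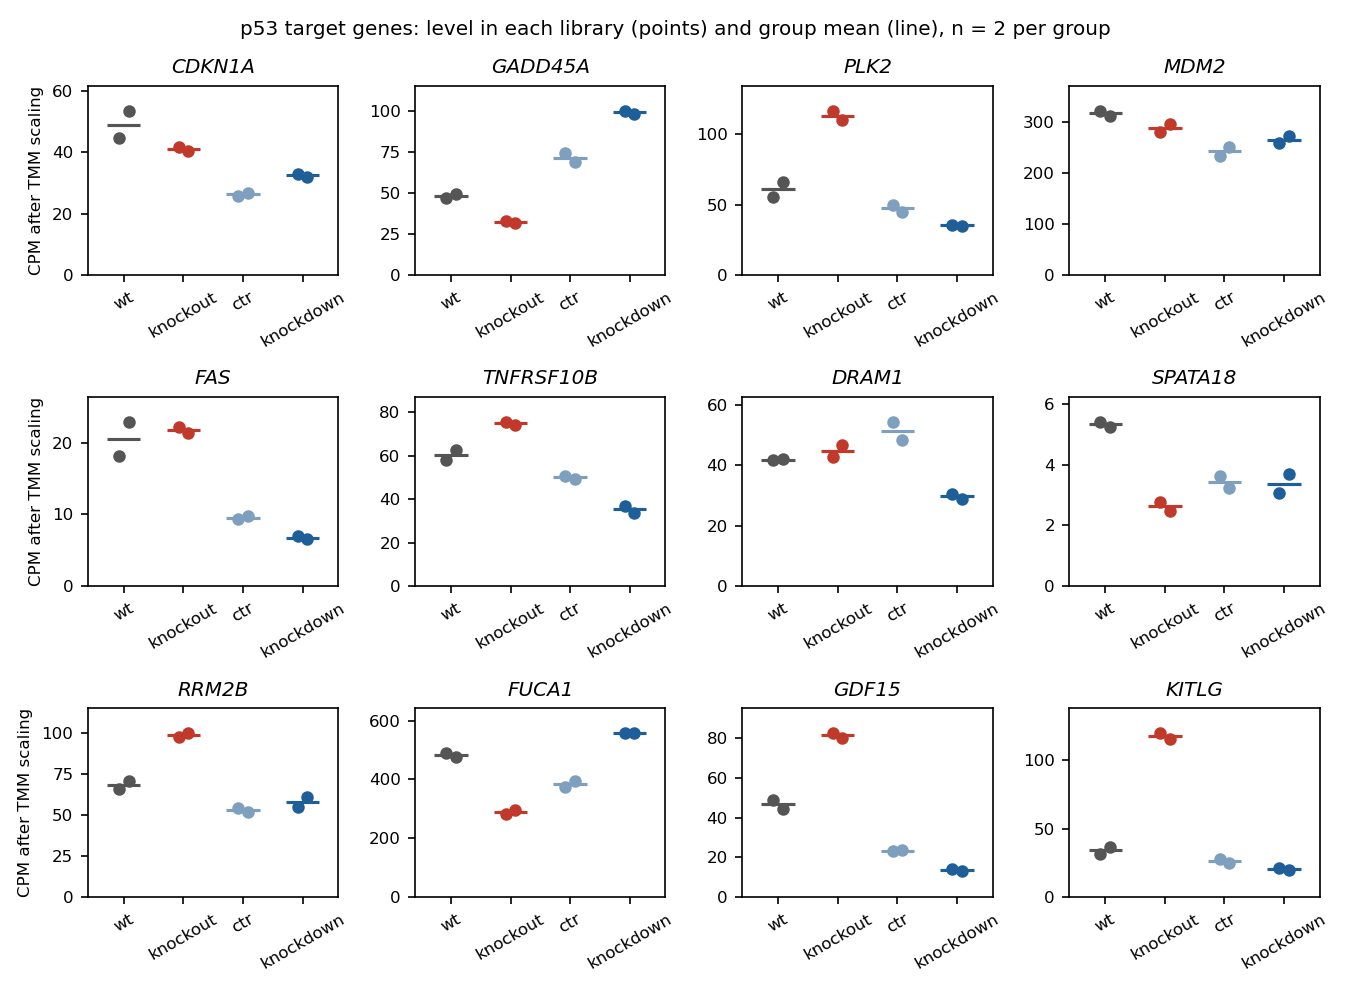
Level of 12 p53 target genes in each library (points, CPM after TMM scaling, y axis from 0) by group (x axis), with the mean of the 2 libraries as a line. KITLG, GDF15, PLK2, RRM2B and TNFRSF10B are highest in the knockout, GADD45A and FUCA1 are highest in the knockdown, and CDKN1A is lowest in shControl.

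Of the 5 genes of DNA repair and nucleotide supply, 2 were higher in the knockout, and 1 was higher and 1 lower in the knockdown. In shControl against wild type 1 was higher and 2 were lower. Their called shares were 40.0%, 40.0% and 60.0%, beside 34.5%, 15.8% and 19.2% of all genes tested. RRM2B, the p53-inducible subunit of ribonucleotide reductase, stood at 66.1 and 70.5 CPM in wild type, 97.3 and 100.1 in the knockout, 54.1 and 52.1 in shControl and 55.0 and 61.0 in the knockdown. Both knockout libraries were above all others, and the wild-type libraries were above all 4 shRNA libraries. RRM2B rose in the knockout by 0.53 (SE 0.07, adjusted p = 7.01e-05) and was lower in shControl than in wild type, with a fold change of -0.36 (SE 0.07, adjusted p = 0.00307); the knockdown gave 0.13 (SE 0.07, adjusted p = 0.239). DDB2, which recognises ultraviolet damage for nucleotide excision repair, stood at 14.2 and 16.4 CPM in wild type, 16.4 and 19.8 in the knockout, 13.5 and 14.3 in shControl and 10.1 and 8.99 in the knockdown. The knockdown libraries were the lowest, and shControl overlapped with wild type. DDB2 fell in the knockdown, with a fold change of -0.54 (SE 0.12, adjusted p = 0.0124), a call lost without shControl library 1 (-0.58, adjusted p = 0.0512), shControl library 2 (-0.50) or knockdown library 2 (-0.46).

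XPC, which recognises damage in the same repair pathway, moved opposite to DDB2 in the knockdown, rising by 0.35 (SE 0.07, adjusted p = 0.00522). Its levels were 68.4 and 61.5 CPM in wild type, 59.6 and 53.5 in the knockout, 83.1 and 81.2 in shControl and 102 and 107 in the knockdown, with no overlap between groups. The XPC call in the knockdown was lost without shControl library 2 (0.33, adjusted p = 0.0575) or knockdown library 2 (0.32, adjusted p = 0.0566); XPC was also higher in shControl than in wild type by 0.34 (SE 0.07, adjusted p = 0.00679), a call lost without shControl library 1 (0.33, adjusted p = 0.0582). POLH, a DNA polymerase that copies past ultraviolet damage, gave 0.23 (SE 0.08, adjusted p = 0.0479) in the knockout, which was lost without wild-type library 1 (0.18), knockout library 1 (0.25) or knockout library 2 (0.22), in DESeq2 (0.24, adjusted p = 0.122), with no filter on low counts (0.23, adjusted p = 0.0878) and with only the groups compared (0.23, adjusted p = 0.0829). ASCC3, a helicase of alkylation repair, was lower in shControl than in wild type, with a fold change of -0.38 (SE 0.06, adjusted p = 0.00101) and gave 0.04 (SE 0.06, adjusted p = 0.643) in the knockout. Its neighbours had a median of -0.14 between the controls, which leaves -0.24 for ASCC3.

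Among the 5 genes of metabolism and redox, FUCA1 was the 1 called in the knockout and in the knockdown. Between the controls FUCA1 and TIGAR were called, both lower in shControl than in wild type. Of all genes tested 34.5% were called in the knockout, 15.8% in the knockdown and 19.2% between the controls. FUCA1, a lysosomal fucosidase, stood at 491 and 477 CPM in wild type, 284 and 295 in the knockout, 374 and 394 in shControl and 559 and 556 in the knockdown. The groups were in separate ranges, lowest in the knockout and highest in the knockdown. Its fold change was -0.74 (SE 0.05, adjusted p = 6.42e-07) in the knockout, 0.54 (SE 0.05, adjusted p = 2.46e-05) in the knockdown and -0.33 (SE 0.05, adjusted p = 0.00101) in shControl against wild type. The 40 genes tested nearest to FUCA1 had a median of -0.73 in the knockout against wild type, -0.24 in shControl against wild type and 0.00 in the knockdown. FUCA1 minus its neighbours' median was thus -0.01 in the knockout, -0.10 between the controls and 0.53 in the knockdown. What the shift of the neighbours contributes was not tested. TIGAR, a phosphatase that lowers glycolytic flux, stood at 12.4 and 10.4 CPM in wild type, 13.1 and 11.4 in the knockout, 6.74 and 7.23 in shControl and 7.91 and 6.25 in the knockdown. All 4 shRNA libraries were below wild type and knockout, which overlapped. TIGAR was lower in shControl than in wild type, with a fold change of -0.71 (SE 0.15, adjusted p = 0.00694), a call lost without shControl library 1 (-0.66, adjusted p = 0.0608). SESN1, a sestrin that restrains mTORC1, TP53I3, a quinone oxidoreductase, and FDXR, ferredoxin reductase, were not called in any of the 3 comparisons. Their intervals in the knockout were -0.32 to 0.14, -0.50 to -0.01 and -0.54 to 0.22.

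The 3 tested genes for ligands and surface receptors were called in both perturbations, where 34.5% (knockout) and 15.8% (knockdown) of all genes tested were called. KITLG, the ligand of the receptor KIT, stood at 31.7 and 36.7 CPM in wild type, 119.8 and 115 in the knockout, 28.1 and 24.8 in shControl and 20.95 and 19.9 in the knockdown. Both knockout libraries were far above all others, and the knockdown libraries were the lowest. KITLG rose in the knockout by 1.78 (SE 0.08, adjusted p = 2.86e-08) and fell in the knockdown by 0.37 (SE 0.09, adjusted p = 0.0147), and shControl was lower than wild type, with a fold change of -0.37 (SE 0.09, adjusted p = 0.0112). The KITLG call in the knockdown was lost without shControl library 1 (-0.28), knockdown library 1 (-0.41) or knockdown library 2 (-0.33), and that between the controls without wild-type library 2 (-0.26) or shControl library 2 (-0.28). GDF15, a secreted stress cytokine, stood at 48.7 and 44.4 CPM in wild type, 82.6 and 79.9 in the knockout, 23.0 and 23.5 in shControl and 14.2 and 13.1 in the knockdown. The groups were in separate ranges in the order knockout, wild type, shControl and knockdown. Its fold change was 0.80 (SE 0.07, adjusted p = 3.60e-06) in the knockout, -0.77 (SE 0.08, adjusted p = 4.77e-05) in the knockdown and -1.001 (SE 0.07, adjusted p = 6.87e-06) in shControl against wild type. EPHA2, an ephrin receptor kinase, was lower after both perturbations, with a fold change of -0.39 (SE 0.08, adjusted p = 0.00272) in the knockout and -0.35 (SE 0.08, adjusted p = 0.0113) in the knockdown. The second call was lost without shControl library 1 (-0.36), shControl library 2 (-0.34) or knockdown library 1 (-0.30).

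**Figure D3:**
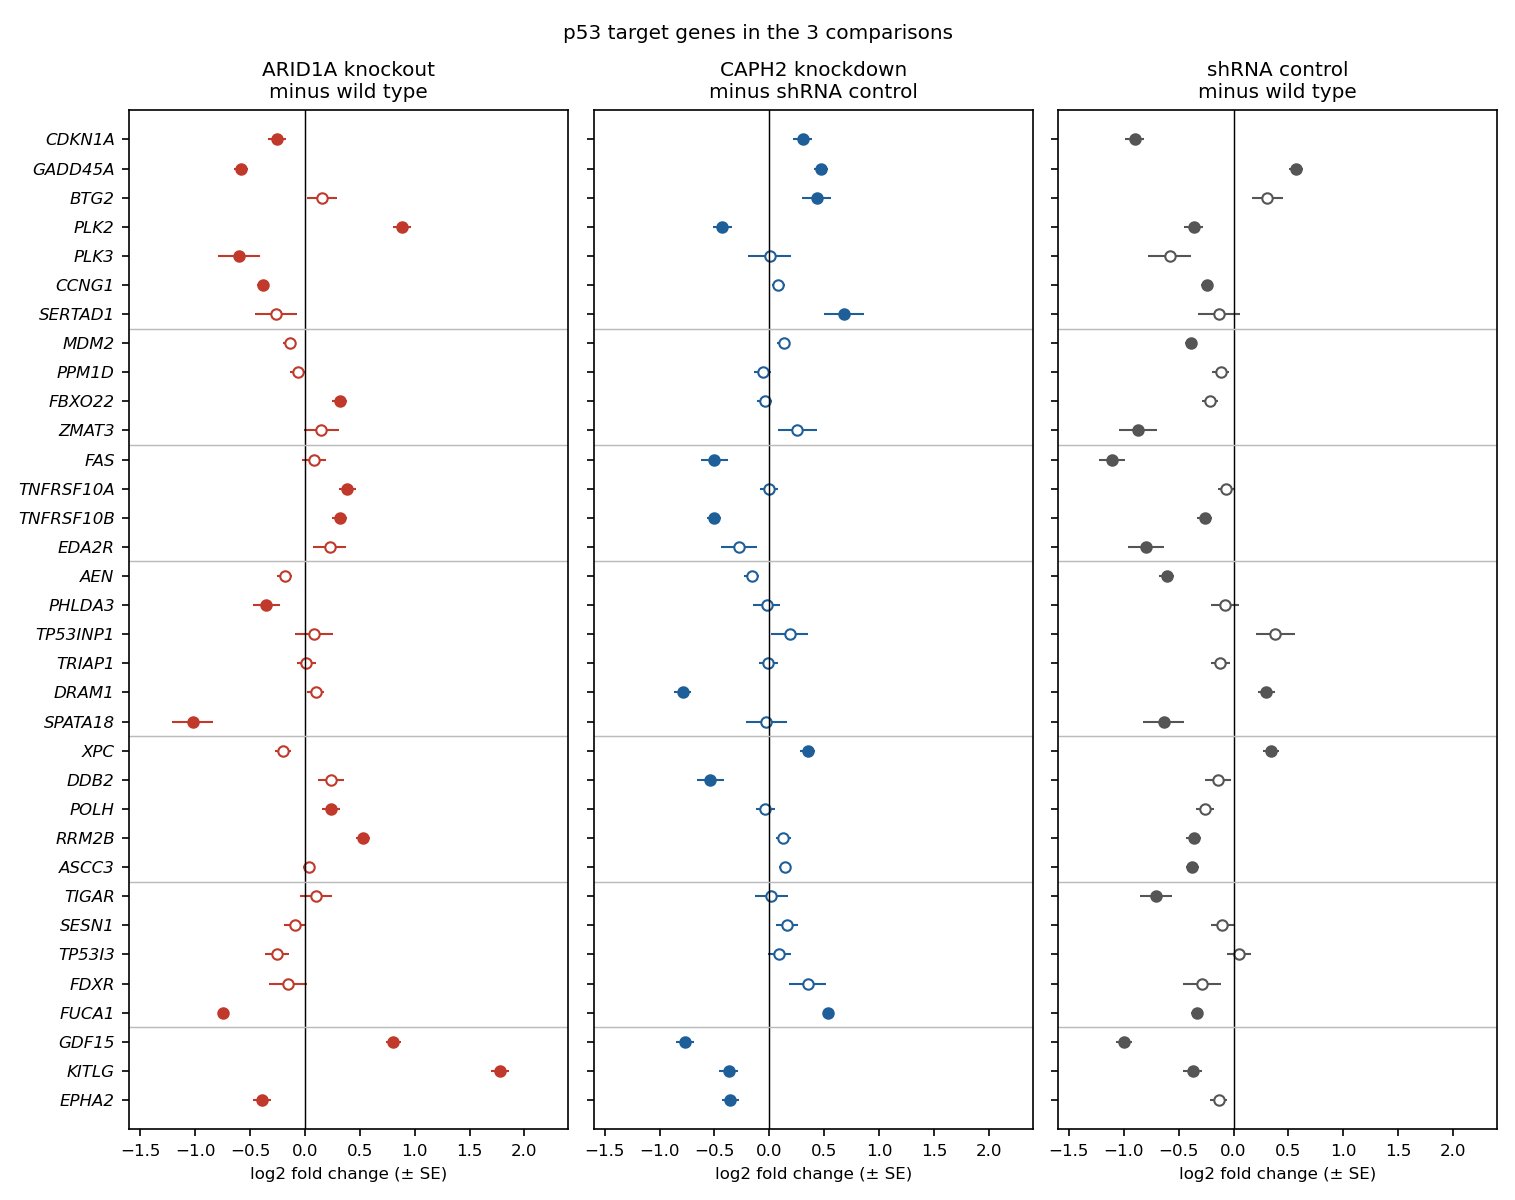
Log2 fold change (x axis, with SE as bars) of each of the 34 tested p53 target genes (rows, grouped by role and separated by grey lines) in the 3 comparisons; filled points passed an adjusted p of 0.05. Filled points lie on both sides of 0 in the knockout and the knockdown panels, and mostly below 0 in the panel of shControl minus wild type.

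The knockout and the knockdown share no library, so their effects were compared directly. Of the 8 members called in both, 7 moved in opposite directions (87.5%), where 710 of the 1518 genes called in both over the whole table did (46.8%). KITLG, GDF15, PLK2 and TNFRSF10B rose in the knockout and fell in the knockdown, and GADD45A, FUCA1 and CDKN1A did the reverse. EPHA2 was lower in both. The members called in both fell from 8 to 4 without shControl library 1 (4 of them opposite), to 5 without knockdown library 1 (5 opposite) and to 5 without knockdown library 2 (4 opposite). CDKN1A was no longer among them in DESeq2 or in a fit of only the groups compared, each of which gave 7. CDKN1A also dropped out without any 1 library other than wild-type library 1. GADD45A, TNFRSF10B, FUCA1 and GDF15 were called in opposite directions in each of these fits. Across the 34 members the fold changes had a Pearson r of -0.48 and a Spearman rho of -0.47, and across all genes tested the values were 0.06 and 0.05; genes of 1 fit share their libraries and are not independent replicates.

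The difference between the knockout and the knockdown effect was called for 18 of 34 members (52.9%), 10 higher and 8 lower, where 26.3% of all genes tested were called (12.3% higher and 14.0% lower). The difference was 2.15 (SE 0.12, adjusted p = 2.12e-07) for KITLG, 1.57 (SE 0.10, adjusted p = 7.58e-07) for GDF15 and 1.32 (SE 0.12, adjusted p = 9.62e-06) for PLK2. DRAM1 (0.89), TNFRSF10B (0.82) and DDB2 (0.78) followed, along with FAS, RRM2B, TNFRSF10A and FBXO22. On the other side stood FUCA1 with -1.28 (SE 0.07, adjusted p = 2.12e-07), GADD45A with -1.05 (SE 0.09, adjusted p = 5.42e-06) and CDKN1A with -0.56 (SE 0.12, adjusted p = 0.00495), beside SPATA18 (-0.996), SERTAD1 (-0.94), XPC (-0.55), CCNG1 (-0.46) and MDM2 (-0.27). Among these, DRAM1, DDB2, FAS, XPC, SERTAD1 and MDM2 were not called in the knockout against wild type, and MDM2 was not called in the knockdown either. Leaving out at least 1 library ended the call of the difference for SERTAD1 (-0.97 to -0.56 without wild-type library 2, knockout library 2, either shControl library or knockdown library 1), MDM2 (-0.30 to -0.22 without knockout library 1, shControl library 1 or either knockdown library) and SPATA18 (-0.92 to -0.86 without knockout library 2, shControl library 2 or knockdown library 2). The same held for FAS (0.42 to 0.61 without any 1 library other than wild-type library 2 and knockdown library 1), FBXO22 (0.31 to 0.37 without either knockout library, shControl library 2 or knockdown library 2) and TNFRSF10A (0.30 to 0.36 without wild-type library 2, knockout library 2, shControl library 2 or knockdown library 1).

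**Figure D4:**
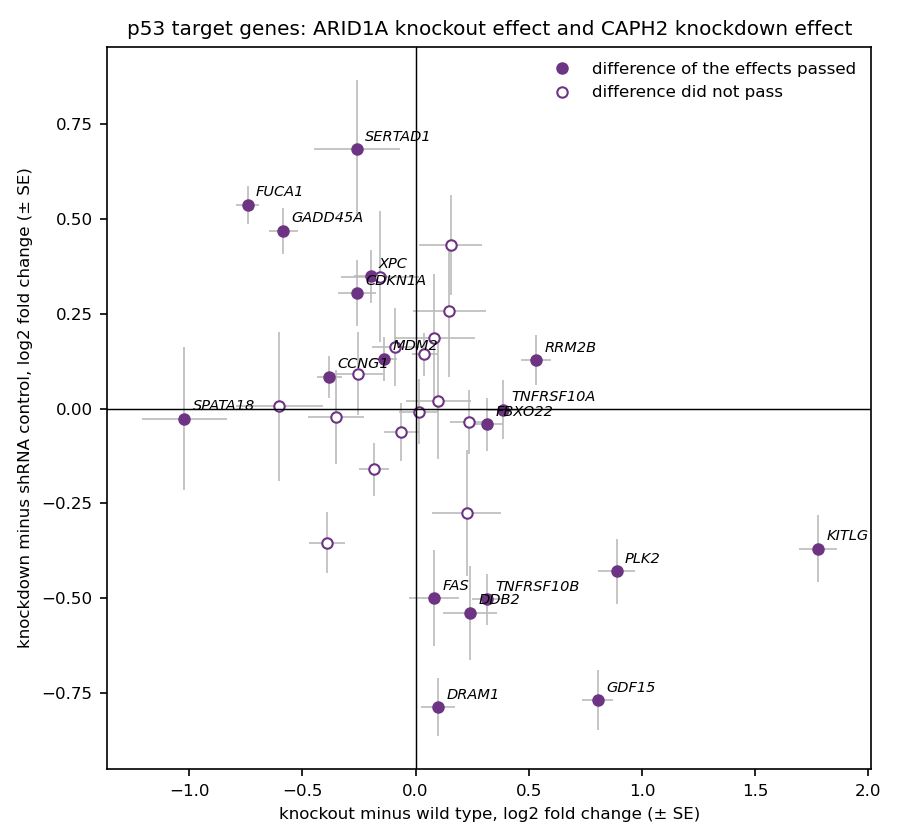
Log2 fold change of each tested p53 target gene in the knockout (x axis) and in the knockdown (y axis), with SE as bars; filled and named points are those whose difference between the effects passed an adjusted p of 0.05, and MDM2 is among them. KITLG, GDF15, PLK2 and TNFRSF10B lie at the lower right, and GADD45A, FUCA1 and CDKN1A at the upper left.

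Because the controls differed, the knockout was also set against shControl, where 22 of 34 members were called (64.7%), 17 higher and 5 lower, and 41.8% of all genes tested were called (20.9% in each direction). The median of the members was 0.19 and that of all genes tested was -0.01. The comparison shares its knockout libraries with the one against wild type, so values are given side by side. Against wild type and against shControl respectively, the fold change was 1.78 and 2.15 for KITLG, 0.80 and 1.81 for GDF15, 0.89 and 1.25 for PLK2, and 0.53 and 0.90 for RRM2B. Each of these 4 was called higher against either control. For TNFRSF10B the values were 0.32 and 0.58, and for GADD45A they were -0.58 and -1.15, called against either control.

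The death receptor FAS gave 0.08 against wild type, which was not called, and 1.19 (SE 0.12, adjusted p = 9.40e-06) against shControl. ZMAT3, EDA2R and TIGAR behaved likewise, with 0.15, 0.23 and 0.10 against wild type, none called, and 1.02, 1.02 and 0.81 against shControl, all called. AEN, MDM2 and ASCC3 were called higher against shControl, at 0.43, 0.25 and 0.41, and were not called against wild type, at -0.18, -0.14 and 0.04. The MDM2 call against shControl was lost without knockout library 2 (0.21) or shControl library 1 (0.19). CDKN1A was the 1 member called lower against wild type and higher against shControl. FUCA1 was lower against shControl, with a fold change of -0.41 (SE 0.05, adjusted p = 6.09e-05), while its 40 neighbours had a median of -0.53, so that its difference from them was 0.13. SPATA18 and PLK3, lower against wild type, gave -0.39 (SE 0.19, adjusted p = 0.128) and -0.02 (SE 0.19, adjusted p = 0.953) against shControl.

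**Figure D5:**
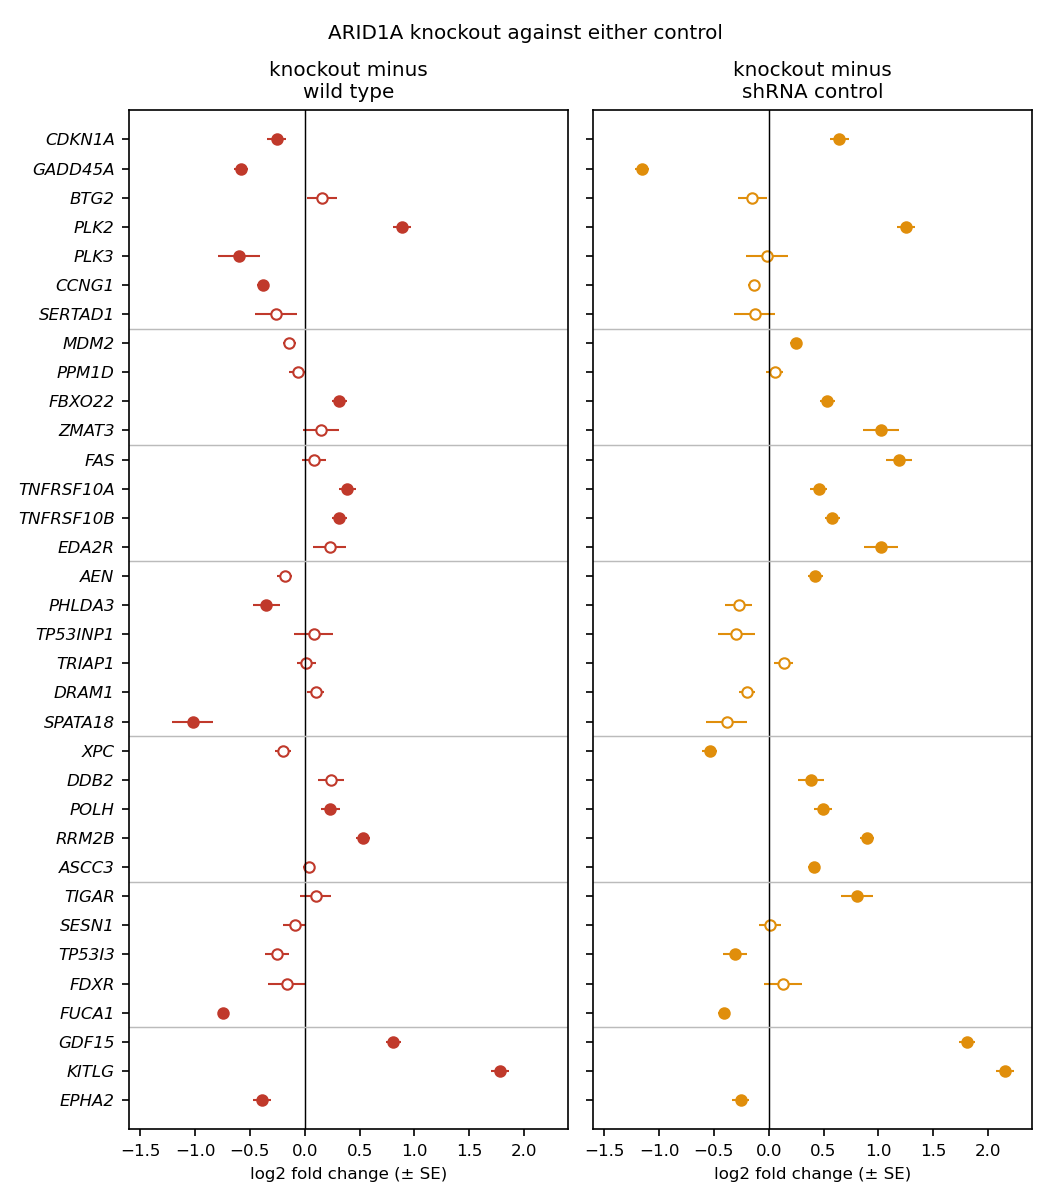
Log2 fold change (x axis, with SE as bars) of the 34 tested p53 target genes (rows, grouped by role) in the knockout against wild type (left) and against shControl (right); filled points passed an adjusted p of 0.05, and both panels use the same knockout libraries. CDKN1A is filled on the left of 0 against wild type and on the right of 0 against shControl, and FAS, ZMAT3, EDA2R and TIGAR are filled only against shControl.

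MDM4, which binds and restrains p53, was not called in the knockout against wild type (-0.06, adjusted p = 0.681) or the knockdown (-0.20, adjusted p = 0.197). In the knockout against shControl MDM4 was called lower. That call was lost without knockout library 2 (-0.17), shControl library 1 (-0.22) or shControl library 2 (-0.34). CDKN2A, whose ARF product blocks MDM2, was at 0.207 to 0.757 CPM and was not called.

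Of 30 regulators of p53 (MDM4 and CDKN2A among them) 29 were tested, with 3 higher and 12 lower in the knockout, 4 higher and 3 lower in the knockdown, and 3 higher and 6 lower in shControl against wild type. These are 51.7%, 24.1% and 31.0% of those tested, where 34.5%, 15.8% and 19.2% of all genes tested were called. The median fold change was -0.12 in the knockout and 0.00 in the knockdown. Apart from MDM4, no fold change of these regulators was recomputed with a library left out. ATM, the kinase that signals DNA breaks to p53, stood at 242 and 246 CPM in wild type, 120.2 and 122 in the knockout, 209 and 201 in shControl and 305 and 309 in the knockdown. It was lowest in the knockout and highest in the knockdown, with fold changes of -1.01 (SE 0.05, adjusted p = 5.86e-08) and 0.58 (SE 0.05, adjusted p = 1.31e-05). The 40 genes tested nearest to ATM had a median of -0.68 in the knockout. TP73, a p53 paralogue, and PPP1R13B, a cofactor that turns p53 toward apoptosis genes, were lower in the knockout, with a fold change of -1.07 (SE 0.22, adjusted p = 0.00268) and -1.03 (SE 0.12, adjusted p = 4.73e-05), the neighbours of PPP1R13B having a median of -0.70. CHEK2, a checkpoint kinase downstream of ATM, rose in the knockdown by 1.16 (SE 0.07, adjusted p = 4.55e-07), and HIPK2, a kinase of p53, by 0.38 (SE 0.08, adjusted p = 0.00739).

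Of 38 other known p53 targets 37 were tested, with 8 higher and 16 lower in the knockout, 3 higher and 6 lower in the knockdown, and 3 higher and 8 lower in shControl against wild type; their medians were -0.10, -0.08 and -0.12. The called shares were 64.9%, 24.3% and 29.7%, beside 34.5%, 15.8% and 19.2% of all genes tested. No fold change of these other targets was recomputed with a library left out. PLCL2, at 0.124 and 0.0724 CPM in wild type and 1.48 and 1.64 CPM in the knockout, rested on few wild-type counts, with a fold change of 3.96 (SE 0.67, adjusted p = 0.00111) and an interval of 2.48 to 5.44. GRHL3, an epithelial transcription factor, fell in the knockout, at -2.95 (SE 0.26, adjusted p = 5.02e-06), and its neighbours had a median of -0.58. SERPINB5, the epithelial serpin maspin, was lower in the knockout as well, with a fold change of -2.81 (SE 0.27, adjusted p = 9.12e-06). The interferon-inducible TRIM22 rose in the knockdown by 1.74 (SE 0.31, adjusted p = 0.00264), as did CES2, a carboxylesterase, by 0.51 (SE 0.15, adjusted p = 0.0398), while CMBL, a hydrolase, was lower, at -0.43 (SE 0.05, adjusted p = 0.000186).

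Of 20 cell cycle genes known to be repressed through p21 and the DREAM complex, 8 were higher and 0 lower in the knockout, 0 were higher and 10 lower in the knockdown, and 1 was higher and 4 lower in shControl against wild type. The called shares were 40.0%, 50.0% and 25%, beside 34.5%, 15.8% and 19.2% of all genes tested. Neither the counts nor the fold changes of these 20 genes were recomputed with a library left out. Their medians were 0.16 in the knockout, -0.20 in the knockdown and 0.02 between the controls. CDKN1A itself was lower in the knockout (-0.26) and higher in the knockdown (0.30), and its largest difference was between the controls (-0.90). In the knockout against shControl, where CDKN1A was higher by 0.64, 9 of these genes were higher and 1 was lower, with a median of 0.14. That is 50.0% called, beside 41.8% of all genes tested. A link of these genes to the level of CDKN1A was not tested. The largest called changes in the knockout were NEK2 at 0.34 (SE 0.06, adjusted p = 0.00106), AURKA at 0.27 (SE 0.06, adjusted p = 0.00295) and BIRC5 at 0.26 (SE 0.05, adjusted p = 0.00262), which act in centrosome separation, spindle assembly and chromosome segregation. Those in the knockdown were the mitotic kinases PLK1 at -0.52 (SE 0.12, adjusted p = 0.013) and AURKB at -0.51 (SE 0.11, adjusted p = 0.0101) and the mitotic transcription factor FOXM1 at -0.43 (SE 0.09, adjusted p = 0.0079). The difference between both effects was called higher for 11 of the 20 (55.0%, beside 26.3% of all genes tested) and lower for 0. AURKA was also lower in shControl than in wild type, with a fold change of -0.38 (SE 0.06, adjusted p = 0.00097).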

How the data were processed

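RNA of 8 libraries was sequenced after Trizol extraction and library preparation with a TruSeq Total RNA kit, per the labels' protocols. The authors deposited expected counts for each Ensembl gene in a single table with a column for each library. Per the submitters' processing notes, Bowtie2, RSEM 1.2.12 and hg19 were used. The sources used here give no Bowtie2 version, annotation release or strand setting. All counts were whole, so rounding altered none. A table of gene names and GENCODE 29 gave 52301 IDs a symbol and left 5435 without; GENCODE 29 also gave exon lengths and neighbour order (20 tested genes on each side, on GRCh38).

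Of 57736 IDs 29952 had a count, and 16657 passed filterByExpr by group. In R 4.3.3, edgeR 4.0.16 fitted group means without a block to all 8 libraries (TMM scaling, quasi-likelihood F-test, 4 residual degrees of freedom), since 2 libraries per group leave few degrees of freedom, with Benjamini-Hochberg adjustment over the genes tested. The common biological coefficient of variation was 7.74%. CPM is the count divided by the TMM-scaled total. The script was tested on simulated data. No label says that the libraries of a group were separate cultures, so each p-value reflects the spread between these libraries only. A p that misses the threshold does not show that levels are equal.

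Per-library values are given for CDKN1A, MDM2 and each member called with an absolute log2 fold change of at least 0.5 in the knockout, the knockdown or shControl against wild type; of the pathway lists, the 3 largest called changes in the knockout and in the knockdown, and MDM4 and CDKN2A. Some genes of the lists are not reported here. XPC and ATM were given per library, and CCNG1, FBXO22 and other members outside the rule were named, after their values were seen. The members, role groups, pathway lists and marker lists were chosen with earlier results of these data known. Alternatives were RLE and upper-quartile scaling, no filter on low counts, DESeq2 1.42.0, a replicate block, a fit of only the groups compared, CPM without TMM factors, fold changes relative to neighbours and leaving out each library.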

Additional observations from a re-analysis of the deposited data

How the results depend on the processing

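The number of called members kept within 1.5 times its value under RLE scaling, upper-quartile scaling, no filter on low counts, DESeq2, the replicate block and, where run, a fit of only the groups compared, for all 5 comparisons; the difference between both effects uses all groups, so that last fit gives no value for it. Leaving out 1 library gave 6 to 9 called members (14 with all libraries) and 1360 to 1524 called genes (2639) in the knockdown, and 12 to 20 members (19) and 1553 to 3410 genes (3205) in shControl against wild type. With the replicate block the members called were 14 in the knockout, 13 in the knockdown, 19 between the controls, 21 in the knockout against shControl and 18 for the difference; deviations of same-numbered libraries correlated at -0.02 to 0.03, so the numbers do not pair the libraries. With the block, PHLDA3 (-0.35, adjusted p = 0.0632) and POLH (0.23, adjusted p = 0.0628) in the knockout and BTG2 (0.43, adjusted p = 0.0655) in the knockdown did not pass. Of 1040 recomputed fold changes of genes already called, with MDM2 also where it was not called, 913 kept direction and side of the threshold, 127 no longer passed and 0 reversed. Of 858 recomputed fold changes of members not called, 12 newly passed, among them XPC in the knockout and CCNG1 and DRAM1 in the knockout against shControl. Relative to the median of the neighbours, 49 of 98 fold changes moved by more than their SE, 48 did not, and FUCA1 in the knockout against shControl reversed (0.13). The cause was not tested. Without TMM factors 25 of 140 mean CPM values moved by over 1 SD, by a ratio of at most 1.03. A single library left in a group is assumed to vary like the other groups, and genes of a few CPM, such as PLK3 and SPATA18, are limited by depth.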
